A study of Mus musculus with 20 samples.

Results

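Bmp7, Enpp2, Lamc3 and Trps1 are 4 genes known from the dermal papilla, the cluster of specialised fibroblasts at the base of the hair follicle that instructs the overlying epithelium. They were picked because the study named them as raised in the dermis of wounds that overexpress Sonic hedgehog (Shh), so they are 4 of the 19807 genes listed in the deposited tables and were chosen on their own difference between Shh and WT wound dermis. That difference, and every other one that reuses those dermal wound libraries, is given below as values with no test. The genes were tested only in the epidermal libraries and between the layers of embryonic skin, which did not choose them.

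RNA was sequenced from the separated dermis and epidermis of 3 sources, all of mixed strain. WT wounds came from wild type mice of 4 to 5 weeks, 3 libraries per layer (WT-9097, WT-9098 and WT-9229). Shh wounds came from K14-CreER; LSL-Shh mice of the same age, also with 3 libraries per layer (Shh-9101, Shh-9231 and Shh-9233). In these mice tamoxifen lets Cre, driven by the K14 promoter of basal keratinocytes, remove a stop in front of an Shh transgene. By the study's methods the control mice received tamoxifen too. Wound tissue was taken 2 days after the scab detached. E14.5 skin was intact skin of wild type embryos with 4 libraries per layer (3, 4, 5 and 7), so embryonic age and the absence of a wound cannot be told apart. The study counts more wounds and more mice per wound condition than there are libraries per layer, so a library may pool wounds or animals. The labels do not say which, and p-values measure the spread between these samples.

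Dermal papilla cells form when an epithelial placode signals to the dermis beneath it. The study found epithelial Shh to be needed for new papillae in large adult wounds. It also states that embryos without Shh can still form papillae. Bone morphogenetic proteins (BMPs) are secreted ligands that bind paired receptors and act through Smad proteins, and the papilla both makes and answers them. The 4 genes cover different roles. Bmp7 encodes a BMP ligand. Enpp2 encodes autotaxin, a secreted enzyme that makes the lipid signal lysophosphatidic acid (LPA). Lamc3 encodes the laminin gamma 3 chain of basement membranes. Trps1 encodes a GATA-type zinc finger repressor whose loss in people causes tricho-rhino-phalangeal syndrome, with sparse hair.

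Values are CPM: a gene's reads divided by all reads of the library and multiplied by 1000000. Total reads ranged from 1407498 to 8002999 in wound dermis, from 2135041 to 10810590 in wound epidermis and from 15663677 to 18745431 in E14.5 skin. WT-9229 dermis stood apart: it had the fewest reads, only 11895 genes detected, and a microRNA gene, Mir5105, as its top gene at 177144 CPM. Mir5105 also led WT-9229 epidermis, at 62839 CPM. Shh-9233 dermis and WT-9097 epidermis also had few genes detected, 12044 and 11179. Results that rest on WT-9229 are therefore given with and without it. Shh itself was at 7.35 to 10.7 CPM in Shh wound epidermis and at 0 to 1.5 CPM in WT wound epidermis (mean 9.11 against 0.499 CPM), in the direction of the labels. The Hedgehog pathway genes Ptch1, Gli1 and Gli2 were at 94.4, 32.3 and 47.4 CPM in Shh dermis and at 32.1, 12.7 and 15.7 CPM in WT dermis, as group means. None of them, nor Shh, passed the test used here in either layer. The study's own test reports a false discovery rate under 0.05 for Ptch1 in both layers and for Shh and Gli2 in epidermis. Keratinocyte markers summed to 15731 CPM or more in every epidermal library and to 3415 CPM or less in every dermal one. Fibroblast markers summed to 29225 CPM or more in dermis and 3515 CPM or less in epidermis. Both sums were far lower in E14.5 skin. Fibroblast sums were 259174 to 306913 CPM in WT, 234508 to 361514 CPM in Shh and 29225 to 31079 CPM in E14.5 dermis. Keratinocyte sums were 89205 to 113355 CPM in WT, 93869 to 101945 CPM in Shh and 15731 to 20921 CPM in E14.5 epidermis. All 7 skeletal muscle markers were higher in E14.5 dermis, where they summed to 6339 to 24397 CPM, than in wound dermis, where the sum did not pass 67.7 CPM.

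On build NCBIM37 the genes form 2 pairs on 2 chromosomes. Lamc3 (ENSMUSG00000026840) lies at chr2:31742811-31802059 on the plus strand and Bmp7 (ENSMUSG00000008999) at chr2:172693513-172765822 on the minus strand, with 140.9 megabases between them. Trps1 (ENSMUSG00000038679) lies at chr15:50486307-50721587 and Enpp2 (ENSMUSG00000022425) at chr15:54670453-54751701, both on the minus strand and 3.95 megabases apart. Each value counts reads over the whole gene, so it does not separate isoforms. Trps1 overlaps the microRNA gene Mir1907 on the same strand, and the other members overlap no listed gene.

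The comparison of Shh with WT wound dermis asks what epidermal Shh does to the dermis below it. Bmp7 was at 6.44, 2.40 and 0 CPM in WT-9097, WT-9098 and WT-9229, and at 11.3, 11.2 and 18.9 CPM in Shh-9101, Shh-9231 and Shh-9233. No WT library reached the lowest Shh library, and the mean was 4.69-fold higher (13.8 ± 4.39 against 2.95 ± 3.25 CPM, SD, n = 3 each). The 0 in WT-9229 allows up to 2.13 CPM, the level of 3 reads (counting error only), which is close to the value of WT-9098. Without WT-9229 the ratio was 3.13.

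Lamc3 had the same shape. It was at 17.5, 15.7 and 0 CPM in WT dermis and at 44.2, 53.2 and 58.4 CPM in Shh dermis, again without overlap. The mean was 4.69-fold higher in Shh dermis (52.0 ± 7.17 against 11.1 ± 9.64 CPM), or 3.13-fold without WT-9229. On the scale of log2(CPM + 1) the difference was 2.96, and 1.58 without that library.

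Enpp2 was at 7.87, 11.5 and 3.55 CPM in WT dermis, the last from 5 reads, and at 23.6, 19.1 and 20.7 CPM in Shh dermis. The Shh libraries were all above the WT libraries and close to each other. The mean was 2.77-fold higher (21.1 ± 2.28 against 7.63 ± 3.96 CPM) and 2.19-fold higher without WT-9229.

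Trps1 was at 187, 172 and 56.1 CPM in WT dermis and 352, 255 and 248 CPM in Shh dermis. Here too the groups did not overlap. The mean was 2.06-fold higher (285 ± 58.0 against 138 ± 71.5 CPM), and 1.59-fold higher without WT-9229.

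Across all 19430 genes of this comparison Shh dermis was wholly above WT dermis for 7.74%, and the study's choice of these 4 fixed their place among them. No gene passed an adjusted p of 0.05 with limma (0% of genes, 546 at an unadjusted p under 0.05), none passed with edgeR and 11 passed with DESeq2. The study states that qPCR bore out its own data on these genes. As these are bulk samples, more cells of a type and more RNA per cell cannot be told apart.

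**Figure D1:**
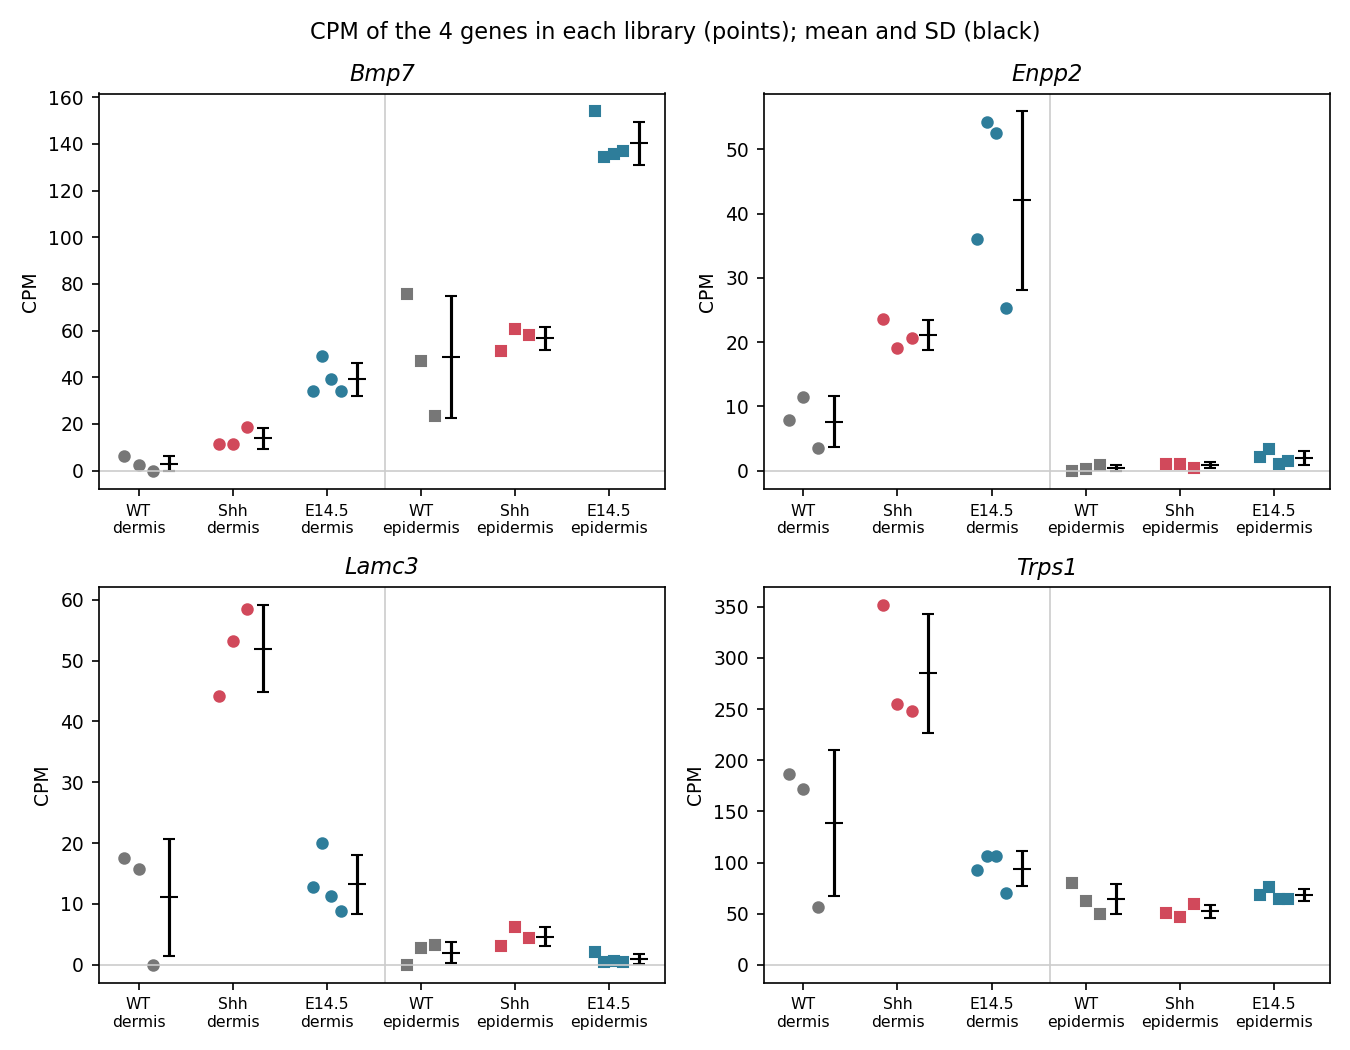
CPM (y axis) of Bmp7, Enpp2, Lamc3 and Trps1 in each of the 20 libraries, as circles for dermis and squares for epidermis (WT wound grey, Shh wound red, E14.5 skin blue), with the mean and SD of each group in black beside its points. Each gene is higher in Shh than in WT dermis, Bmp7 is highest in epidermis, and Lamc3 and Trps1 are lower in E14.5 dermis (8.83 to 20.1 and 70.7 to 107 CPM) than in Shh dermis.

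E14.5 dermis shows where the levels of a Shh wound stand beside skin that is making its first follicles, and here the 4 genes parted into 2 pairs. Bmp7 and Enpp2 were higher in E14.5 dermis than in any wound dermis. Lamc3 and Trps1 were lower there than in every Shh library. CPM values of a library share 1 total, and most genes were higher in CPM in E14.5 skin: where only genes averaging 50 CPM or more were taken, the median log2 difference from WT and Shh wounds was 0.91 and 0.77 in dermis and 0.61 and 0.52 in epidermis. Differences of the members are therefore also given with TMM scaling, which lowers such a shift without removing it. Against WT and Shh wounds the median over all genes went from 0.78 and 0.61 to 0.26 and 0.18 in dermis. In epidermis it went from 0.66 and 0.45 to 0.34 and 0.08.

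Bmp7 was at 34.0, 49.1, 39.4 and 34.2 CPM in E14.5 dermis (replicates 3, 4, 5 and 7). These were all above Shh dermis, by 2.84-fold in the mean, and above WT dermis, by 13.3-fold (8.86-fold without WT-9229). WT, Shh and E14.5 dermis thus formed 3 steps that did not overlap. The log2 difference from Shh dermis was 1.46, and 0.84 with TMM scaling.

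Enpp2 followed the same order, at 36.1, 54.3, 52.5 and 25.3 CPM in E14.5 dermis. The mean of 42.0 ± 13.8 CPM (n = 4) was 1.99-fold that of Shh dermis and 5.51-fold that of WT dermis. The log2 difference from Shh dermis was 0.90 and 0.28 with TMM scaling, so most of that upper step went with the scaling.

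Lamc3 was at 12.7, 20.1, 11.3 and 8.83 CPM in E14.5 dermis. Shh dermis was 3.92-fold higher with no overlap, whereas E14.5 dermis overlapped WT dermis. The log2 difference from WT dermis was 1.02 with all 3 WT libraries and -0.36 without WT-9229, which turned its direction. It was also below 0 on recovered reads with edgeR (-0.60) and DESeq2 (-0.51).

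Trps1 was at 92.4, 107, 106 and 70.7 CPM in E14.5 dermis, and Shh dermis was 3.03-fold higher. E14.5 dermis overlapped WT dermis only through WT-9229. Without it, all 4 embryonic libraries were below both WT libraries, whose mean was then 1.91-fold higher. The share of all genes wholly below WT dermis was not computed. The log2 difference from Shh dermis was -1.59, and -2.23 with TMM scaling.

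Beside these values, E14.5 dermal libraries did not overlap Shh libraries and were higher for 47.7% of genes and lower for 9.19%, and for 53.2% they were wholly above WT dermis. The contrasts share libraries with the one that chose the genes and with each other.

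Levels can be set between genes only per length, here CPM per kilobase of exon (4019 bases for Bmp7, 5779 for Enpp2, 6091 for Lamc3 and 13380 for Trps1, from the GENCODE M21 annotation). In Shh dermis Trps1 led at 21.3 CPM per kilobase, followed by Lamc3 at 8.53, Enpp2 at 3.66 and Bmp7 at 3.44, and Enpp2 and Bmp7 overlapped. In WT dermis the order was the same, from 10.3 for Trps1 to 0.733 for Bmp7. In E14.5 dermis it was another: Bmp7 was at 9.74, Enpp2 at 7.28, Trps1 at 7.03 and Lamc3 at 2.17 CPM per kilobase, and Enpp2 overlapped both Bmp7 and Trps1. In all 3 epidermal groups Bmp7 led, from 12.1 CPM per kilobase in WT to 34.9 in E14.5 epidermis.

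The 4 genes did not share a layer. Bmp7 was an epidermal transcript in all 3 sources, and Enpp2 and Lamc3 were mostly dermal. Trps1 was found in both layers. In E14.5 skin, whose libraries did not choose the genes, Bmp7 was lower in dermis by 1.83 on the log2 scale (the lower of the layers in 4 of 4 libraries, adjusted p = 2.67e-07, limma). Enpp2 was higher in dermis by 3.83 (95% interval 3.19 to 4.48, adjusted p = 9.47e-07) and Lamc3 by 2.93 (2.25 to 3.60, adjusted p = 9.84e-06). The study named the members as signature genes of the papilla, a dermal structure. A higher level in dermis is therefore not independent of that naming.

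The exact two-sided permutation test of 4 against 4 libraries gave p = 0.0286 for Bmp7, Enpp2 and Lamc3, the smallest it can give. Trps1 was higher in dermis by 0.44 (0.16 to 0.73, adjusted p = 0.0102 with limma). Its exact permutation p was 0.0571, since the lowest dermal library, at 70.7 CPM, lay below the highest epidermal one, at 76.4 CPM. Of all genes in this comparison 31.9% were called higher in dermis and 35.6% higher in epidermis. The layers did not overlap for 29.5% (dermis higher) and 32.6% (dermis lower).

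Libraries of dermis and epidermis that carry the same number allow the ratio to be read one by one. Bmp7 was 2.74 to 4.52-fold higher in epidermis in E14.5 skin and 3.08 to 5.40-fold higher in Shh wounds. In WT wounds it was 11.8-fold and 19.6-fold higher in WT-9097 and WT-9098 and at least 11-fold higher in WT-9229, where dermis had no read. The WT and Shh ratios did not overlap, while the epidermal values of WT and Shh wounds did. Each wound ratio holds the dermal values that chose the genes. Differences in ratio between WT and Shh wounds are thus given as values and add no separate result.

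Trps1 was 4.18 to 6.92-fold higher in dermis in Shh wounds, 1.12 to 2.75-fold in WT wounds and 1.09 to 1.66-fold in E14.5 skin. Lamc3 was 8.55 to 14.1-fold higher in the dermis of Shh wounds. In E14.5 skin its ratio ran from 5.87 in replicate 3 to 47.4 in replicate 4. In WT wounds Lamc3 was 5.78-fold higher in dermis in WT-9098 and at least 31.1-fold in WT-9097, while in WT-9229 it was read in epidermis alone. Enpp2 was 15.7 to 53.6-fold higher in dermis in E14.5 skin. It was 21.3-fold and 17.0-fold higher in the dermis of Shh-9101 and Shh-9231. In wound epidermis 4 of 6 libraries held 3 or fewer reads of it, too few for a ratio.

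**Figure D2:**
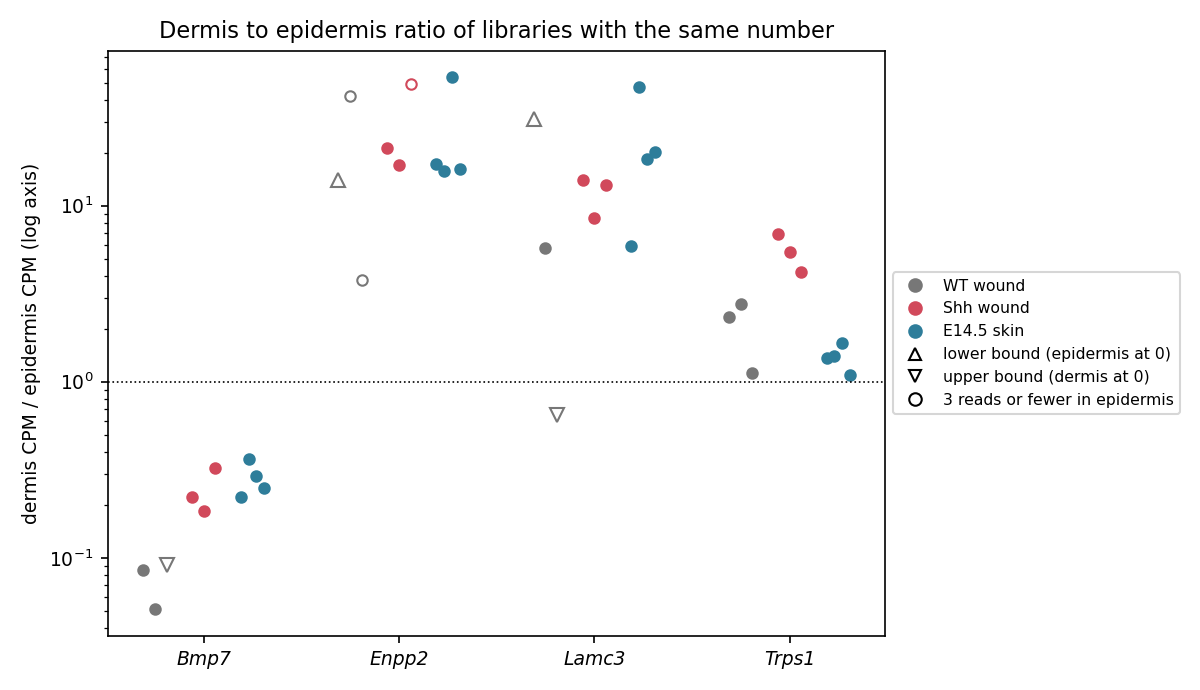
Ratio of dermis CPM to epidermis CPM (y axis, log scale) for libraries with the same number, by gene (WT wound grey, Shh wound red, E14.5 skin blue). Triangles are bounds computed at 3 reads where 1 layer had none and open circles rest on 3 reads or fewer in epidermis. Bmp7 lies below the dotted line of equal levels in all 10 pairs, and the Shh points of Trps1 (4.18 to 6.92) lie above those of the other sources.

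In epidermis none of the 4 genes passed the test between Shh and WT wounds. Bmp7 was at 75.8, 46.9 and 23.4 CPM in WT epidermis and at 51.2, 60.7 and 58.0 CPM in Shh epidermis. The Shh values fell inside the WT range, and the log2 difference was 0.36 (95% interval -0.47 to 1.20, adjusted p = 0.743, limma). Without WT-9229 it was -0.08.

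Trps1 was at 80.1, 62.5 and 50.1 CPM in WT and at 50.9, 46.9 and 59.3 CPM in Shh epidermis, a log2 difference of -0.27 (-0.78 to 0.24, adjusted p = 0.686, limma). Without WT-9229 the difference was -0.44 and all 3 Shh libraries were lower. Lamc3 was at 0, 2.72 and 3.28 CPM in WT and at 3.15, 6.23 and 4.46 CPM in Shh epidermis. Its difference of 1.12 had a wide interval (-0.54 to 2.78, adjusted p = 0.629, limma), so a difference of this size was not detectable with these libraries. Leaving out 1 library gave 0.46 (without WT-9097) to 1.5 (without WT-9229).

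Enpp2 was barely read, at 0, 2 and 2 reads in the WT libraries and 12, 11 and 3 reads in the Shh libraries. The log2 difference was 0.46 (-0.28 to 1.19, adjusted p = 0.648, limma), and 0.24 without WT-9097 and 0.72 without WT-9229. No member's Shh libraries lay wholly above its WT libraries, while 14.3% of genes did so. Without WT-9229 the Shh libraries of Enpp2 and Lamc3 were wholly above the other WT libraries. The share of all genes that did so without WT-9229 was not computed, so this is given as values only. Limma called 0% of genes in this comparison (1846 at an unadjusted p under 0.05), edgeR called 6 and DESeq2 called 64. The difference between the layers in the response to Shh was not tested, because the dermal arm chose the genes.

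Against E14.5 epidermis the genes again moved in different ways. Bmp7 rose: E14.5 epidermis held 154, 134, 136 and 137 CPM, above all 6 wound libraries. The mean was 2.88-fold that of WT epidermis (log2 difference 1.65 ± 0.33 SE, adjusted p = 0.00343, limma) and 2.47-fold that of Shh epidermis (1.29 ± 0.10, adjusted p = 6.79e-07). With TMM scaling these were 1.13 and 0.70. E14.5 epidermis held the highest Bmp7 level of all 6 groups, at 140.2 ± 9.20 CPM.

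Lamc3 fell relative to Shh epidermis. It was at 2.17, 0.424, 0.612 and 0.438 CPM in E14.5 epidermis, all below the 3 Shh libraries, and Shh epidermis was 5.06-fold higher (log2 difference -1.60 ± 0.31, adjusted p = 0.00069, limma). From WT epidermis it differed by -0.48 (adjusted p = 0.47, limma). Without WT-9097, whose epidermis had no Lamc3 read, that difference was -1.15 (adjusted p = 0.0263). The low embryonic level of Lamc3 relative to Shh wounds was thus seen in both layers.

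Enpp2 was at 2.11, 3.45, 0.979 and 1.56 CPM in E14.5 epidermis, above WT epidermis by 1.10 ± 0.35 on the log2 scale (adjusted p = 0.0262, limma). This call rests on 4 reads in all WT epidermal libraries together and was lost with TMM scaling (adjusted p = 0.0900). It was also lost when WT-9097, WT-9098, E14.5 replicate 3 or replicate 4 was left out (adjusted p from 0.0559 to 0.0655). From Shh epidermis it differed by 0.64 (adjusted p = 0.0548).

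The endothelial markers, summed, were at 62.9, 43.9, 18.1 and 38.2 CPM in the same E14.5 libraries and at 6.39 to 17.3 CPM in wound epidermis. The lowest Enpp2 value and the lowest endothelial sum fell in the same E14.5 library, replicate 5. All 8 endothelial markers had a read in E14.5 epidermis, and up to 6 of 8 had none in a WT library. Their part in the Enpp2 result was not tested.

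Trps1 was at 67.8, 76.4, 63.9 and 64.6 CPM in E14.5 epidermis, a narrow range. It was above all Shh libraries by 0.38 ± 0.11 (adjusted p = 0.0111, limma), but with TMM scaling the difference was -0.22, so its direction depends on the scaling. From WT epidermis it differed by 0.11 (adjusted p = 0.617), and by -0.42 with TMM scaling (adjusted p = 0.0226). Of all genes, 47.7% were called higher and 11.4% lower in E14.5 than in WT epidermis, with 50.5% wholly above. Against Shh epidermis 51.7% were called higher and 19.6% lower. There 51.1% lay wholly above, and the share wholly below was 18.9%.

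**Figure D3:**
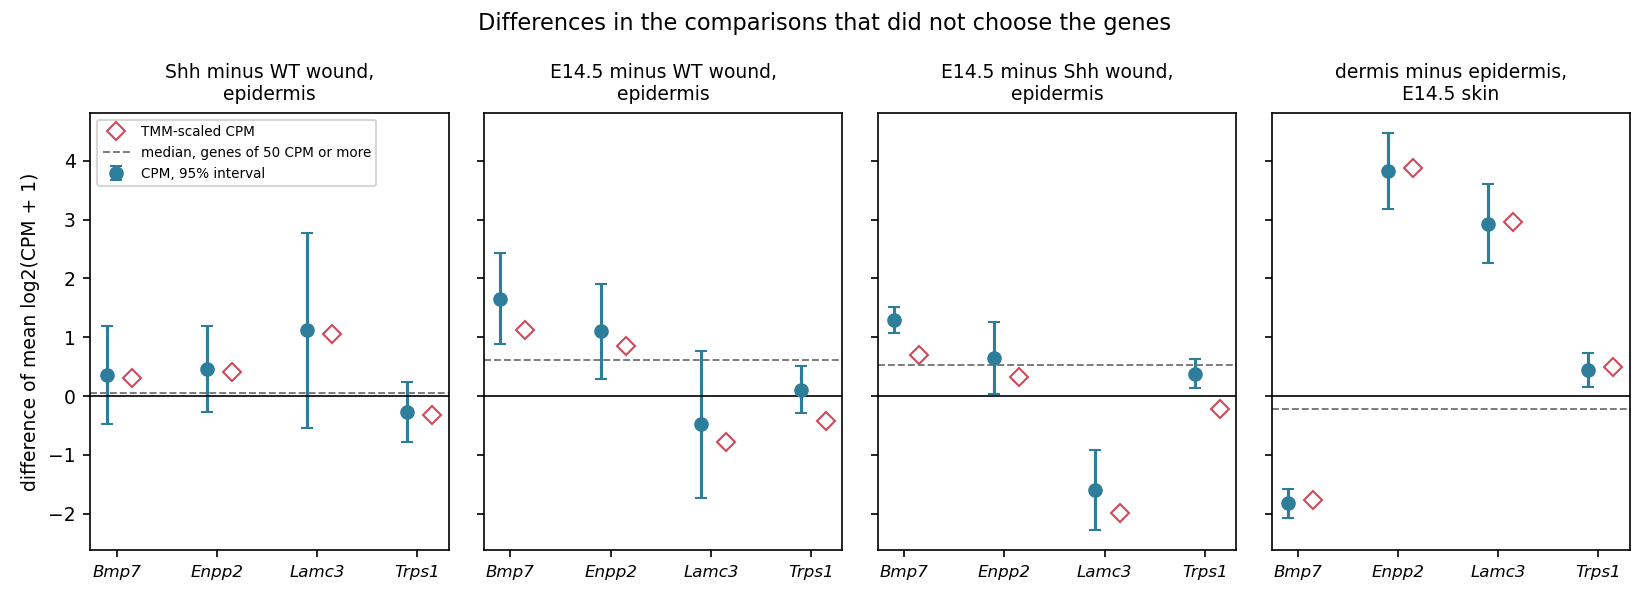
Differences of mean log2(CPM + 1) (y axis) for the 4 genes in the comparisons that did not choose them, with 95% intervals from limma (blue), the same with TMM scaling (red diamonds) and the median over genes averaging 50 CPM or more (dashed line). No Shh minus WT interval in epidermis excludes 0, Bmp7 is higher in E14.5 than in either wound epidermis, and Trps1 changes sign with the scaling in both E14.5 comparisons of epidermis.

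Ranked over all 6 groups, Bmp7 ran from E14.5 epidermis (140.2 CPM) through Shh and WT epidermis (56.7 and 48.7), E14.5 dermis (39.2) and Shh dermis (13.8) to WT dermis (2.95). WT epidermis overlapped both of its neighbours. Enpp2 ran from E14.5 dermis (42.0 CPM) through Shh dermis (21.1) and WT dermis (7.63) to the 3 epidermal groups, at 2.03 CPM or less, where neighbours overlapped. Lamc3 led in Shh dermis (52.0 CPM), and from E14.5 dermis (13.2) down to E14.5 epidermis (0.911) each group overlapped the next. Trps1 also led in Shh dermis (285 CPM). Its other 5 groups, from WT dermis (138) to Shh epidermis (52.3), each overlapped the next.

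The likeness of patterns was measured as Pearson's r of log2(CPM + 1) over the 20 libraries, among 12373 genes averaging 5 CPM or more. These libraries share layers, sources and depth, so r is a description. Nearest to Bmp7 were Usp10 (0.98), Naa20, Wdr20a, Fem1a and Ddx26b. Nearest to Enpp2 were Esam (0.98) and Robo4 (0.97), both endothelial genes, then Nova1, Npr1 and Lepr. Dock4 was nearest to Lamc3 (0.94), with Asphd2, Adrbk2, Pik3r6 and Zhx3 after it, and Dock4 was also the third gene for Trps1, after Arhgef7 (0.92) and Golga3 and before Spnb2 and Smarca2. Among the members, Bmp7 and Enpp2 had r = 0.94 over the 10 dermal libraries but -0.32 over all 20, and Lamc3 and Trps1 had 0.79 over all 20, 0.85 over the dermal and -0.84 over the 10 epidermal libraries.

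Endothelial markers moved with Enpp2 in dermis. The 8 markers summed to 188, 348 and 179 CPM in WT dermis, 444, 638 and 439 CPM in Shh dermis and 816 to 923 CPM in E14.5 dermis. The 3 groups did not overlap and came in the order of Enpp2. Bmp7 had the same order in dermis without overlap (group means of 2.95, 13.8 and 39.2 CPM), so this order is not particular to Enpp2. The share of all genes so ordered was not computed. In E14.5 dermis 7 of 8 markers were called higher and 1 lower than in WT dermis, beside 49.4% and 6.63% of all genes. Against Shh dermis it was also 7 and 1, beside 42.5% and 8.08% of all genes. All 8 markers had a positive difference between Shh and WT dermis, with a median of 1.09 on the log2 scale against 0.13 for all genes, and none passed the test. Without WT-9229, 7 of 8 were positive and the median was 0.85. The 0.13 for all genes is with WT-9229 included, and the median of all genes without it is not given here. The 8 pericyte and smooth muscle markers were also all positive, with a median of 0.60 (0.65 without WT-9229), and summed to 656 to 1056 CPM in WT and 1076 to 1347 CPM in Shh dermis. In E14.5 dermis they summed to 869 to 1055 CPM. The part of either marker list in the values of the members or of other genes was not tested.

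**Figure D4:**
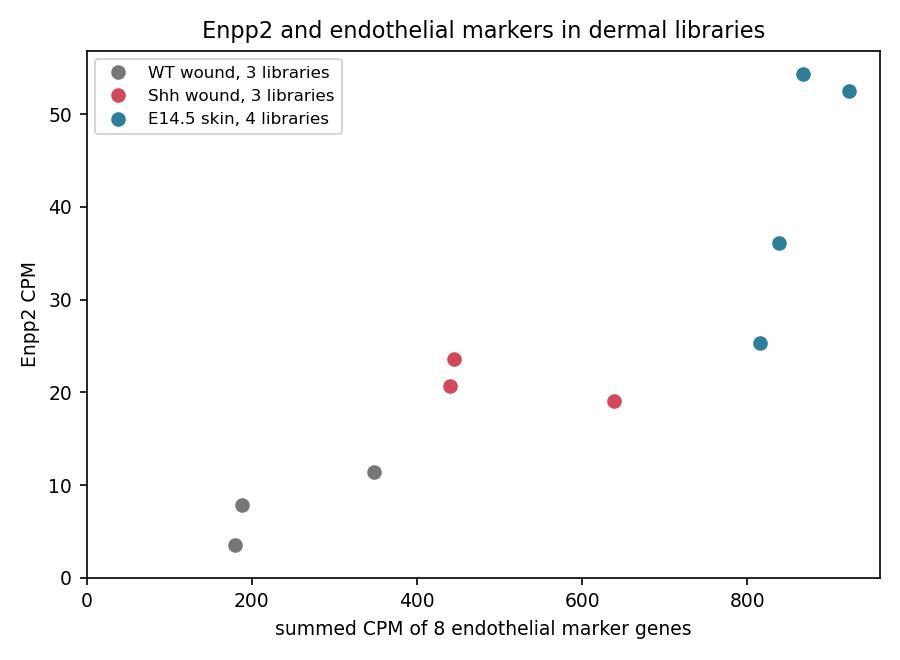
Enpp2 CPM (y axis) against the summed CPM of 8 endothelial marker genes (x axis) in the 10 dermal libraries (WT wound grey, Shh wound red, E14.5 skin blue). The groups are apart on both axes, from WT (179 to 348 and 3.55 to 11.5 CPM) to E14.5 skin (816 to 923 and 25.3 to 54.3 CPM).

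Around the members, 29 other dermal papilla and condensate genes were examined. Between Shh and WT dermis none passed the test, 19 of 29 had a positive difference and the median was 0.30 against 0.13 for all genes. Without WT-9229 only 13 of 29 were positive, with a median of -0.02. The 0.13 for all genes is with WT-9229 included, and the median of all genes without it is not given here. The differences ran from -1.04 for Hhip, a Hedgehog-binding membrane protein, to 2.03 for Rspo3, a secreted enhancer of Wnt signalling. Rspo3 was at 0 to 6.66 CPM in WT and 12.2 to 14.4 CPM in Shh dermis. E14.5 dermis was another matter: 24 of 29 were called higher than in WT dermis (49.4% of genes were called higher, 6.63% lower) and 21 of 29 higher than in Shh dermis (42.5% and 8.08%). The medians were 2.01 and 2.00 against 0.78 and 0.61 for all genes. With TMM scaling 16 and 17 were called higher and 2 lower in each. Among all genes that scaling called 5024 of 19732 higher and 2759 lower than in WT dermis. Against Shh dermis it called 4680 of 19734 higher and 2984 lower. Ngfr, a neurotrophin receptor, was called higher than in both wounds without that scaling, with log2 differences of 3.99 and 4.25 (adjusted p = 2.94e-05 and 1.06e-05, limma). The signal Fgf10 was higher than in WT dermis by 4.21.

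The BMP network around Bmp7 showed no call between Shh and WT dermis. The other 6 BMP ligands measured ran from -0.87 (Bmp6) to 1.08 (Bmp4), and the 8 target genes from -1.34 (Id2) to 1.18 (Id1), with a median of -0.24. The medians were 0.16 for ligands, 0.02 for the 10 receptors and Smads and -0.13 for the 10 antagonists, against 0.13 for all genes. In E14.5 dermis 3 of 6 ligands and 3 of 8 targets were called higher than in Shh dermis, near the 42.5% of all genes. With TMM scaling 1 and 2 were, beside 4680 higher and 2984 lower of all 19734 genes. The unscaled medians of ligands and targets were 0.86 and 1.44 against 0.61 for all genes. Id1 and Id3, inhibitors of differentiation induced by BMP, rose by 3.92 and 2.10 (adjusted p = 3.73e-05 and 3.35e-05, limma). Id1 went from 6.63 to 17.7 CPM in Shh dermis to 157 to 198 CPM in E14.5 dermis. The antagonist Nog (noggin) rose by 2.76 and the receptor Bmpr1a by 2.28. Of the 10 receptors and Smads 5 were called higher and 1 lower (3 and 2 with TMM scaling), and of the 10 antagonists 6 and none (4 and 2), beside 42.5% and 8.08% of all genes. Ligands also differed by layer in E14.5 skin: Bmp4, Bmp5 and Bmp3 were higher in dermis by 2.67, 2.36 and 3.19 (adjusted p of 2.57e-05 or less, limma). Bmp2 was lower there by 0.97 on the log2 scale, the direction of Bmp7.

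The genes that receive or remove the product of Enpp2 were not called between Shh and WT dermis. LPA receptors and lipid phosphatases numbered 9 and ran from -0.91 (Lpar5) to 1.36 (Lpar2). Their median was -0.06. In E14.5 dermis 6 of 9 were called higher and 1 lower than in WT dermis, beside 49.4% and 6.63% of all genes. With TMM scaling 3 and 1 were called, beside 5024 and 2759 of all 19732 genes. The median without that scaling was 1.54 against 0.78. The receptor Lpar6 was at 1.87 to 3.58 CPM in WT, 5.61 to 6.06 CPM in Shh and 25.8 to 37.1 CPM in E14.5 dermis, in the order of Enpp2. Lpar4 was at 2.12 to 4.42 CPM in Shh and 54.1 to 102 CPM in E14.5 dermis (log2 difference 4.29, adjusted p = 3.35e-05, limma). Other ENPP family members ran from -1.40 (Enpp1) to 1.05 (Enpp4) between Shh and WT dermis, with a median of -0.81, and none of the 4 was called.

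Of the other laminin chains, 10 were measured and none was called between Shh and WT dermis, where the highest difference was 0.86 (Lama5) and the median was 0.17, or -0.06 without WT-9229. Lamc1, the common gamma chain, was at 478 to 590 CPM in WT, 556 to 618 CPM in Shh and 466 to 569 CPM in E14.5 dermis. In E14.5 against Shh dermis 2 chains were called higher and 2 lower, beside 42.5% and 8.08% of all genes. With TMM scaling 1 was called higher and 7 lower, beside 4680 and 2984 of all 19734 genes. The median without that scaling was -0.26 against 0.61 for all genes. The early embryonic chain Lama1 rose by 4.75 (adjusted p = 5.88e-05, limma) and Lama2 fell by 1.72 on the log2 scale (adjusted p = 0.00078). Lama2 and Lamc3 thus shared the lower embryonic level. Laminin partners numbered 13, of which 10 had a positive difference between Shh and WT dermis with a median of 0.42. None was called. The highest was Itga8, an integrin chain, at 1.30 (3.55 to 5.60 CPM in WT and 7.62 to 16.2 CPM in Shh dermis).

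For Trps1 the list held GATA factors and 4 genes tied to Trps1 in mouse vibrissa follicles (Sox9, Wif1, Apcdd1 and Dkk4). None of the 8 tested was called between Shh and WT dermis. They ran from -0.73 (Gata3) to 0.73 (Apcdd1), with a median of -0.19. In E14.5 dermis 5 of 9 were called higher than in Shh dermis, beside 42.5% of all genes, with a median of 1.03 against 0.61. With TMM scaling 4 were called higher and 1 lower, beside 4680 and 2984 of all 19734 genes. Trps1 itself was lower in E14.5 dermis. Wif1, a secreted Wnt inhibitor, rose by 4.41 and Gata6 by 3.13 (adjusted p = 0.000798 and 0.00202, limma).

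In epidermis none of these lists had a call between Shh and WT wounds, and the median over all genes was 0.21. No marker was called there either. The difference was positive for 8 of 8 fibroblast markers (median 0.97), 6 of 6 melanocyte markers (1.65) and 3 of 8 keratinocyte markers (-0.02). Fibroblast sums overlapped, at 647 to 3277 CPM in WT and 1142 to 3515 CPM in Shh epidermis. Their part in the epidermal values of Enpp2 and Lamc3 was not tested. Calls in E14.5 epidermis stand beside 47.7% of all genes higher and 11.4% lower against WT epidermis, and 51.7% and 19.6% against Shh epidermis. Those with TMM scaling stand beside 6638 of 19751 genes higher and 3223 lower against WT epidermis. Against Shh epidermis they stand beside 7067 and 6057 of 19775 genes. Markers of other cells were higher in E14.5 than in WT epidermis as well: 5 of 8 fibroblast markers (median 2.77), 6 of 8 pericyte and smooth muscle markers (1.84), 6 of 8 endothelial markers (1.30) and 7 of 7 skeletal muscle markers (4.59) were called. Skeletal muscle markers summed to 766 to 3156 CPM in E14.5 and to 3.28 to 6.38 CPM in WT epidermis. Their part in the list results that follow was not tested. Of the 10 other laminin chains 7 were called higher and 1 lower than in WT epidermis, and 7 and 3 against Shh epidermis (7 and 2, and 7 and 3, with TMM scaling), with medians of 1.73 and 1.29 against 0.66 and 0.45 for all genes. Lamb1 had the smallest adjusted p in both, with differences of 3.99 and 3.52 (3.48e-06 and 6.51e-09, limma), and Lamb3, a beta chain of epidermal basement membrane, fell by 1.49 on the log2 scale from Shh epidermis (adjusted p = 5.70e-06). Lamc3 was thus lower than in Shh epidermis while most other chains were higher.

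The 4 other ENPP genes were all called higher in E14.5 than in WT epidermis, led by Enpp5 at 3.34 (adjusted p = 9.49e-05, limma), with a median of 1.41, and all 4 were called with TMM scaling too. Among LPA genes 5 of 9 were called higher and 2 lower than in WT epidermis, near the share of all genes for higher calls, and 3 and 3 with TMM scaling. Lpar1 and Lpar4 were higher by 3.88 and 2.97 (adjusted p = 0.000145 and 0.000181, limma), and the phosphatase gene Ppap2a fell by 1.96 on the log2 scale (adjusted p = 0.002).

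For the BMP network, where Bmp7 was highest in E14.5 epidermis, 4 of 8 targets were called higher and 2 lower than in WT epidermis (3 and 2 with TMM scaling), which for higher calls is near the 47.7% of all genes. Id1 and Id3 rose by 3.49 and 2.82 (adjusted p = 4.95e-05 and 0.000152, limma), whereas Id4 fell by 4.08 on the log2 scale (adjusted p = 1.39e-05). Antagonists were called higher in 7 of 10 and lower in none, with and without TMM scaling, beside 47.7% and 11.4% of all genes. Fstl1, a secreted follistatin-like protein, led them at 3.69 (adjusted p = 1.25e-05, limma). Among the genes listed with Trps1, the Wnt inhibitor Dkk4 rose by 5.27 from WT and by 5.16 from Shh epidermis (adjusted p = 6.66e-06 and 2.00e-09, limma). Bmp3, Bmp4, Nog and Wif1 stand in the dermal papilla list as well as in another.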

How the data were processed

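Dermis and epidermis were separated in EDTA, and total RNA was sequenced after removal of ribosomal RNA, with a kit that keeps strand. The submitters' processing notes name Bowtie, SAMtools and HTSeq and build NCBIM37, with versions and the strand setting of counting not given in the sources used here. The deposited values are CPM made by the authors, scaled so that each library sums to 1000000. Each CPM value was a whole multiple of 1 read (100% within 0.01), so the reads were recovered. The deposited tables also hold results of the authors' own tests (fold changes with their p-values and FDR), which were not used. In a short list that was not used, 1 column carries a number of no sample.

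Differences were tested with limma 3.58.1 (trend, R 4.3.3) on log2(CPM + 1), with the 2 groups compared and genes with at least 1 read. P-values were adjusted by Benjamini-Hochberg over all genes and called at 0.05. The fold change on this scale can understate that of low genes. Where 1 library is at 0 it can instead exceed the ratio of mean CPM. Lamc3 in Shh against WT dermis had a log2 difference of 2.96 beside a 4.69-fold ratio. Alternatives were TMM scaling, count tests on the recovered reads (DESeq2 1.42.0 and edgeR 4.0.16), limma without trend, a pseudocount of 0.5, a minimum mean of 1 CPM, all groups of a layer in 1 fit, and each library left out. Scripts were tested on simulated data.

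Members and lists were chosen with earlier results of these data known. The named genes are the members, Shh, Ptch1, Gli1 and Gli2 as a check of the labels, and from each list up to 4 genes with the smallest adjusted p, or the lowest and highest difference where none was called, with values for other groups beside them. Lamc1 in dermis was added after its values were seen. The list counts with TMM scaling and without WT-9229 were added after the data were seen. Of the gene symbols on these lists, Gdf5, Gdf6, Enpp6, Enpp7 and Gata5 are not analysed here, Lamb1-1 was taken as Lamb1, and Plpp1, Plpp2 and Plpp3 were taken under their older symbols Ppap2a, Ppap2c and Ppap2b. The lowest difference among the other laminin chains between Shh and WT dermis is not reported here.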

Additional observations from a re-analysis of the deposited data

Results flagged for a closer look

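In 8 groups of 4 libraries the highest and the lowest were screened for a gap to the next library above Dixon's 95% critical share of the group's range, which chance gives in about 1 in 20 groups. E14.5 epidermis replicate 3 stood apart for Bmp7, at 154 CPM against 134 to 137 CPM in the others, and for Lamc3, at 2.17 CPM against 0.424 to 0.612 CPM. Among the 4 E14.5 epidermal libraries the same one had the highest sums of fibroblast markers (2448 CPM against 829 to 1715 CPM) and endothelial markers (62.9 CPM against 18.1 to 43.9 CPM), and their part in these values was not tested.

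Trps1 differed between E14.5 skin and Shh wounds in opposite directions in the layers, with a log2 difference of -1.59 in dermis, where all 4 E14.5 libraries were lower, and 0.38 in epidermis, where all 4 were higher. The difference between the layers was not tested, and the epidermal direction turned with TMM scaling (-0.22).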

How the results depend on the processing

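The values counted here are differences of the members, their exact p and the numbers of genes called. Staying means on the same side of the threshold, for untested differences within 1 SD, and for gene numbers near the main one. With alternatives other than leaving out a library, 212 stayed, 18 moved, 7 no longer passed and 6 tested values turned direction. Another 5 were gene numbers that rose from 0. Those that no longer passed include the exact paired p of Bmp7, Enpp2 and Lamc3, which 4 pairs cannot bring below 0.125. With 1 library left out, 231 stayed, 3 newly passed, 4 no longer passed and 2 tested values turned. The newly passed include the gene number in Shh against WT epidermis. Among the untested values counted as within 1 SD, Lamc3 in E14.5 against WT dermis turned from 1.02 to -0.36 without WT-9229, -0.60 with edgeR and -0.51 with DESeq2. Trps1 in E14.5 against Shh epidermis turned to -0.22 with TMM scaling (adjusted p = 0.113), -0.23 with edgeR (0.114) and -0.30 with DESeq2 (0.0435), and was 0.38 with all groups in 1 fit (0.0801). Against WT epidermis it turned to -0.42 with TMM scaling (0.0226), -0.44 with edgeR (0.0315) and -0.48 with DESeq2 (0.00247), and leaving out 1 library gave -0.057 to 0.28, below 0 without WT-9229. Enpp2 in E14.5 against WT epidermis was 0.84 with TMM scaling (0.0900), 2.11 with edgeR (0.152) and 2.10 with DESeq2 (0.106), and 0.88 to 1.36 with 1 library left out. Against Shh epidermis that range was 0.44 to 0.83, which passed without E14.5 replicate 5. Lamc3 against WT epidermis ranged from -1.15 to -0.10, and passed without WT-9097. Bmp7 in Shh against WT epidermis ranged from -0.076 to 0.75, below 0 without WT-9229. The cause was not tested.

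DESeq2 called 11 genes between Shh and WT dermis. Between Shh and WT epidermis edgeR called 6, DESeq2 64, a minimum mean of 1 CPM 8, all groups in 1 fit 145, and leaving out 1 library 0 to 15 (15 without WT-9229). With TMM scaling the share of calls that were higher in E14.5 skin went from 88.2% to 64.6% against WT dermis, from 84.0% to 61.1% against Shh dermis, from 80.7% to 67.3% against WT epidermis and from 72.5% to 53.8% against Shh epidermis. Calls in these comparisons numbered 9741 higher and 1309 lower against 5024 and 2759, 8393 and 1594 against 4680 and 2984, 9425 and 2255 against 6638 and 3223, and 10223 and 3869 against 7067 and 6057.

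Dermal and epidermal libraries share numbers, which the labels do not tie to an animal. The deviations of same-numbered E14.5 libraries correlated at 0.295, 0.0672, 0.156 and 0.312, and 1 of them is below 0.1, so the numbers were not taken as paired. That 3 of 4 correlated best with their own number is a hint of pairing from the data. With the replicate block the exact paired p was 0.125 for Bmp7, Enpp2, Lamc3 and Trps1, the smallest that 4 pairs can give, and limma called 13286 genes between the layers against 13307 without it. Depth limits Enpp2 and Lamc3 most, which had 20 or fewer reads in each WT epidermal library.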
